A study of Rattus norvegicus with 15 samples.

Results

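Amacrine and horizontal cells are the inhibitory interneurons of the retina, and 10 genes that mark them were followed in whole rat retinas. The genes were chosen by name, from those used to mark these cells, and make up 10 of the 20375 genes listed. They are Gad1, Gad2, Slc32a1, Slc6a9, Calb1, Calb2, Th, Chat, Lhx1 and Onecut1. Each was listed once, and all 10 were among the 15424 genes tested.

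Messenger RNA was sequenced from wild type Sprague-Dawley rats at postnatal week 12, with 3 libraries in each of 5 groups. The NT group was healthy and received neither sodium iodate (NaIO3) nor cells. NaIO3, an oxidant that kills the retinal pigment epithelium and then photoreceptors, was given at 40 mg/kg in the other 4 groups. Sham retinas received the vehicle in the vitreous, MSC retinas received human Wharton's jelly mesenchymal stem cells, and MSCEPO retinas received such cells transduced to express erythropoietin. A further group is labelled DPSC after the cells it received, and the labels place all retinas at day 31 after transplantation. Rats with a xenograft were also given dexamethasone and then cyclosporin, so the cells and these drugs cannot be told apart against NT. The labels do not say whether Sham rats received the drugs, and if they did not, the same holds against Sham. No label ties the libraries to separate animals or to a batch, so p-values measure the spread between libraries only.

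Amacrine cells make synapses in the inner plexiform layer, onto bipolar cell terminals, ganglion cells and each other. Most release GABA or glycine, and rarer types add dopamine or acetylcholine as a second transmitter. Horizontal cells feed back onto photoreceptor terminals in the outer plexiform layer, where NaIO3 injury removes their partners over time. Several of the genes are shared with other retinal cells, for example Calb2 with ganglion cells and Slc6a9 with Müller glia. In whole retina, fewer cells of a type and less RNA per cell cannot be told apart.

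RefSeq promoters were found for 7 of the 10 genes, on the GRCr8 build. Those of Gad1, Slc32a1 and Slc6a9 are shown because the correlations among these 3 genes were the highest over the 15 libraries, a choice made after their values were seen. Each window of 300 bases spans the start of the gene, with most of it upstream, 5′ to 3′ on the + strand. Gad1 lies at chr3:75777202-75777501, Slc32a1 at chr3:167686995-167687294 and Slc6a9 at chr5:136659826-136660125. Capitals mark the GC box, GGGCGG or its reverse complement CCGCCC.
Gad1: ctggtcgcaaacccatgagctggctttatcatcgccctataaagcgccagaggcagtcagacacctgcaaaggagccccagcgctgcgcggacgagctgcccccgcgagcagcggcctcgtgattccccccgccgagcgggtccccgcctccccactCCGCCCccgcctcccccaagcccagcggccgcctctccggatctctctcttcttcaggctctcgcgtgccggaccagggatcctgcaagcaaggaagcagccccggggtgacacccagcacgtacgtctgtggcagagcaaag
Slc32a1: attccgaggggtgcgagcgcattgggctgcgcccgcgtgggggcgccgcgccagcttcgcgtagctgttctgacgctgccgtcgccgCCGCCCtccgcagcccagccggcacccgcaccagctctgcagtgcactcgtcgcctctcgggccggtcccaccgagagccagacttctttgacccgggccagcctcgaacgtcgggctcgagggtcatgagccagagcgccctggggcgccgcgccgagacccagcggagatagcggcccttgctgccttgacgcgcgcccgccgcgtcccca
Slc6a9: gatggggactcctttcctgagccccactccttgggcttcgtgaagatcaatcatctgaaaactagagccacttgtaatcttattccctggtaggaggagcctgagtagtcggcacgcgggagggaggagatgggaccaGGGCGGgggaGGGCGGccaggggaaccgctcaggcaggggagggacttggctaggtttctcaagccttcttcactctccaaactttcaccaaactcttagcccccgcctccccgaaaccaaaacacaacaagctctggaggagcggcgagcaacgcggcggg

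The GC box was present once in the Gad1 and Slc32a1 windows and in 2 copies in that of Slc6a9. Of all 33469 promoters of the same length, 33.1% hold it on either strand, and 4 of the 7 matched genes do, Lhx1 being the other. The E-box CANNTG was found in 4 of the 7 and in 72.1% of all promoters. A TATA box, TATAAA, was found in 1 of the 7, Gad1, and in 14.2% of all promoters. The cAMP response element TGACGTCA was found in 1 of the 7, Th, and in 1.83% of all. GC content was 67.7% for Gad1, 73.7% for Slc32a1 and 59.0% for Slc6a9, against a median of 51.7% over all promoters, and the windows held 26, 42 and 14 CpG sites against a median of 7. These matches describe the letters and locate no binding.

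Expression is given as the authors' regularized log (rlog) value. It is a log2 value that allows for library size and is pulled toward the mean of the gene, so differences are understated. It is not divided by gene length, so levels are compared within a gene only. None of the 10 genes passed the limma F test over the 5 groups (adjusted p under 0.05), and 0 passed in any of the 10 comparisons between groups, while 6.22% of all tested genes passed the F test. Only Calb2 had an unadjusted F p under 0.05, as 20.4% of all tested genes did, and its adjusted p was 0.184. The fitted means of these genes nevertheless lay mostly under NT, by a median of 0.18 to 0.42 log2 units in the 4 NaIO3 groups, and MSC replicate 1 was the lowest library for 8 of them.

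Gad1 and Gad2 encode the enzymes that make GABA from glutamate. Gad1 (ENSRNOG00000000007) had rlog values of 12.72, 12.68 and 12.80 in NT, 12.54, 12.58 and 12.29 in Sham, and 11.49, 12.32 and 12.36 in MSC. It stood at 12.18, 12.08 and 12.87 in MSCEPO and at 12.29, 11.97 and 12.79 in DPSC. All Sham and MSC libraries were below all NT libraries, whereas the MSCEPO and DPSC groups each held 1 library within or above the NT range and 2 under it. The means were 12.74 ± 0.06 in NT, 12.47 ± 0.16 in Sham, 12.06 ± 0.49 in MSC, 12.37 ± 0.43 in MSCEPO and 12.35 ± 0.41 in DPSC (SD, n = 3). The MSC mean differed from NT by -0.68 (95% confidence interval -1.25 to -0.11), 62.5% of the NT level on this scale, with an adjusted p of 0.0972.

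Gad2 (ENSRNOG00000018200) moved less. It read 11.41, 11.45 and 11.42 in NT, 11.26, 10.92 and 11.28 in Sham, and 10.64, 11.52 and 11.43 in MSC. Values of 11.29, 11.30 and 11.01 were found in MSCEPO and of 11.14, 11.28 and 11.33 in DPSC. The Sham, MSCEPO and DPSC libraries all lay under the 3 NT libraries, which span a narrow range, but by small steps. The differences from NT were -0.27 in Sham, -0.23 in MSC, -0.22 in MSCEPO and -0.18 in DPSC, with adjusted p between 0.464 and 0.691. The MSC difference was 0.05 without MSC replicate 1.

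Slc32a1 (ENSRNOG00000015393) encodes the vesicular transporter that loads both GABA and glycine. It was 10.56, 10.34 and 10.55 in NT, 10.41, 10.17 and 10.10 in Sham, and 9.39, 10.26 and 10.35 in MSC. The MSCEPO libraries gave 9.90, 10.27 and 10.56 and the DPSC libraries 10.11, 9.82 and 10.53. Every group overlapped with NT. The largest difference in mean was that of MSC, -0.48 (-1.03 to 0.06, adjusted p = 0.214), and without MSC replicate 1 it was -0.18.

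Slc6a9 (ENSRNOG00000019484), the glycine transporter GlyT1, takes glycine up in glycinergic amacrine cells and Müller glia. It read 12.44, 12.31 and 12.46 in NT, 12.29, 12.28 and 12.24 in Sham, and 11.43, 11.97 and 12.05 in MSC. In MSCEPO it was 11.62, 11.98 and 12.52, and in DPSC 12.11, 11.78 and 12.34. The 3 MSC libraries were under all NT and all Sham libraries, and MSCEPO replicate 3 held the highest value of the 15. MSC differed from NT by -0.58 (-1.05 to -0.12), 66.7% of the NT level, with an adjusted p of 0.0818, and from Sham by -0.45 (-0.92 to 0.01, adjusted p = 0.392).

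Calb1 and Calb2 encode the calcium buffers calbindin and calretinin. Calbindin labels horizontal cells and subsets of amacrine cells, and calretinin labels the cholinergic and other amacrine cells and some ganglion cells. Calb1 (ENSRNOG00000007456) was 10.19, 10.17 and 10.03 in NT, 9.49, 10.12 and 9.88 in Sham, and 9.32, 9.88 and 9.68 in MSC. It stood at 9.70, 9.60 and 9.52 in MSCEPO and at 9.82, 9.47 and 9.84 in DPSC. All 9 libraries of the cell groups lay under the lowest NT value, and 1 Sham library remained within the NT range. Means were 10.13 ± 0.09 in NT, 9.83 ± 0.32 in Sham, 9.63 ± 0.28 in MSC, 9.61 ± 0.09 in MSCEPO and 9.71 ± 0.21 in DPSC (SD, n = 3). The differences from NT were -0.50 (-0.87 to -0.14) in MSC, -0.52 (-0.89 to -0.15) in MSCEPO, -0.42 (-0.79 to -0.06) in DPSC and -0.30 (-0.67 to 0.07) in Sham. The adjusted p were 0.0603, 0.0666, 0.223 and 0.527.

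Calb2 (ENSRNOG00000016977) read 13.29, 13.16 and 13.11 in NT and 13.15, 13.51 and 12.89 in Sham. The MSC libraries gave 12.33, 12.54 and 12.53, the MSCEPO libraries 12.32, 12.49 and 13.10, and the DPSC libraries 12.85, 12.36 and 13.24. Sham spread around the NT mean, the 3 MSC libraries lay close together under all 6 libraries of NT and Sham, and in MSCEPO and DPSC 1 library of 3 stood at the control level or just under it. The group means were 13.19 ± 0.09 in NT, 13.18 ± 0.31 in Sham, 12.47 ± 0.12 in MSC, 12.64 ± 0.41 in MSCEPO and 12.82 ± 0.44 in DPSC (SD, n = 3). MSC differed from NT by -0.72 (SE 0.23, -1.23 to -0.21, adjusted p = 0.0525), 60.7% of the NT level, and from Sham by -0.72 (-1.23 to -0.21, adjusted p = 0.187). Sham differed from NT by -0.00 (-0.51 to 0.51, adjusted p = 1.00). Without MSC replicate 1 the MSC difference from NT was -0.65, with an adjusted p of 0.150 in that smaller fit.

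Th encodes tyrosine hydroxylase, the rate-limiting enzyme of dopamine synthesis, which marks the dopaminergic amacrine cells. Th (ENSRNOG00000020410) was 7.32, 7.42 and 7.17 in NT, 7.11, 7.13 and 7.01 in Sham, and 6.04, 7.23 and 7.58 in MSC. It was 7.11, 7.11 and 7.39 in MSCEPO and 7.02, 6.93 and 7.04 in DPSC. The Sham and DPSC libraries were all just under the NT libraries, and the MSC group held both the lowest and the highest value of the 15. Its difference from NT was -0.36 (-0.97 to 0.26, adjusted p = 0.441) with all 3 MSC libraries and 0.10 without MSC replicate 1. For Sham it was -0.22 (-0.83 to 0.39, adjusted p = 0.856) and for DPSC -0.31 (-0.92 to 0.30, adjusted p = 0.634).

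Chat encodes choline acetyltransferase, which makes acetylcholine in the starburst amacrine cells. Chat (ENSRNOG00000025012) read 8.52, 8.09 and 8.32 in NT, 8.27, 8.25 and 8.25 in Sham, and 7.70, 8.22 and 8.31 in MSC. Values were 7.94, 8.03 and 7.96 in MSCEPO and 7.99, 7.87 and 8.20 in DPSC. All MSCEPO libraries were below all NT and all Sham libraries. Their mean differed from NT by -0.33 (-0.68 to 0.01, adjusted p = 0.194) and from Sham by -0.28 (-0.62 to 0.06, adjusted p = 0.666).

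Lhx1 and Onecut1 encode transcription factors of horizontal cells. Lhx1 (ENSRNOG00000002812) stood at 5.97, 5.73 and 6.05 in NT, 5.84, 5.97 and 5.89 in Sham, and 5.30, 5.86 and 5.64 in MSC. The MSCEPO values were 5.58, 5.64 and 5.40 and the DPSC values 5.69, 5.54 and 5.74. MSCEPO lay under NT and Sham in all libraries. The difference was -0.38 (-0.68 to -0.07, adjusted p = 0.106) from NT and -0.36 (-0.66 to -0.05, adjusted p = 0.553) from Sham.

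Onecut1 (ENSRNOG00000008095) differed from the other 9 genes in its lowest library, which was MSCEPO replicate 3. It was 6.69, 6.67 and 6.93 in NT, 6.55, 6.44 and 7.02 in Sham, and 6.52, 6.93 and 6.96 in MSC. It read 6.92, 6.89 and 5.50 in MSCEPO and 6.59, 6.89 and 6.57 in DPSC. A single library, MSCEPO replicate 3, was low, and the other 14 lay between 6.44 and 7.02. The MSCEPO difference from NT of -0.33 (SE 0.31, adjusted p = 0.531) became 0.14 without that library, and the MSC difference was 0.04 (-0.63 to 0.71, adjusted p = 0.953).

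**Figure D1:**
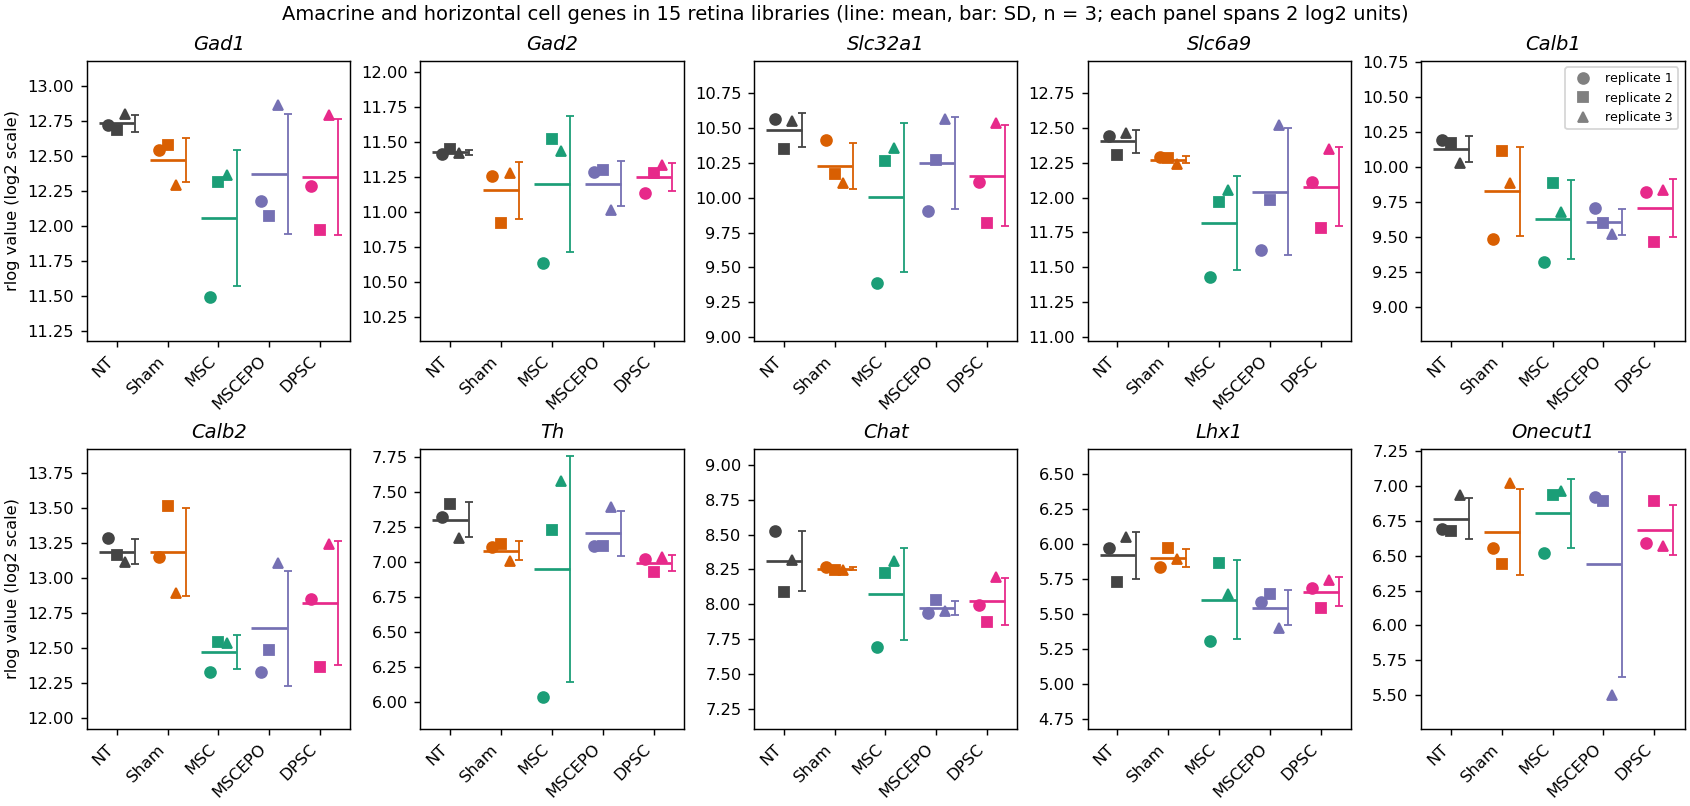
rlog values (log2 scale) of the 10 genes in the 15 libraries, with 1 panel a gene, points for libraries by replicate number, a line for the mean and a bar for the SD (n = 3). The low point in the MSC column of 8 panels is replicate 1, and the low point of Onecut1 is MSCEPO replicate 3.

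MSC replicate 1 held the lowest value of the 15 libraries for 8 of the 10 genes, all but Calb2 and Onecut1. Averaged over the 10 genes it lay 0.85 log2 units under the NT mean (-0.85), while the other 11 libraries with NaIO3 lay between -0.48 and -0.10. The same library had the highest level of 16 macrophage and microglia genes, 3.46 above NT against at most 2.23 elsewhere. Its level of 12 T and NK cell genes was 2.95 above NT, against at most 1.39 in the others. MSCEPO replicate 3 was highest for Gad1 and Slc6a9 and lowest for Onecut1. Its mean level of 4 other horizontal cell genes was -0.42 against -0.26 to 0.13 in the other libraries, and its level of 14 lens, cornea and ciliary body genes was 2.86, although DPSC replicates 1 and 3 were higher at 4.21 and 3.39. The part of these shifts in the results was not tested.

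**Figure D2:**
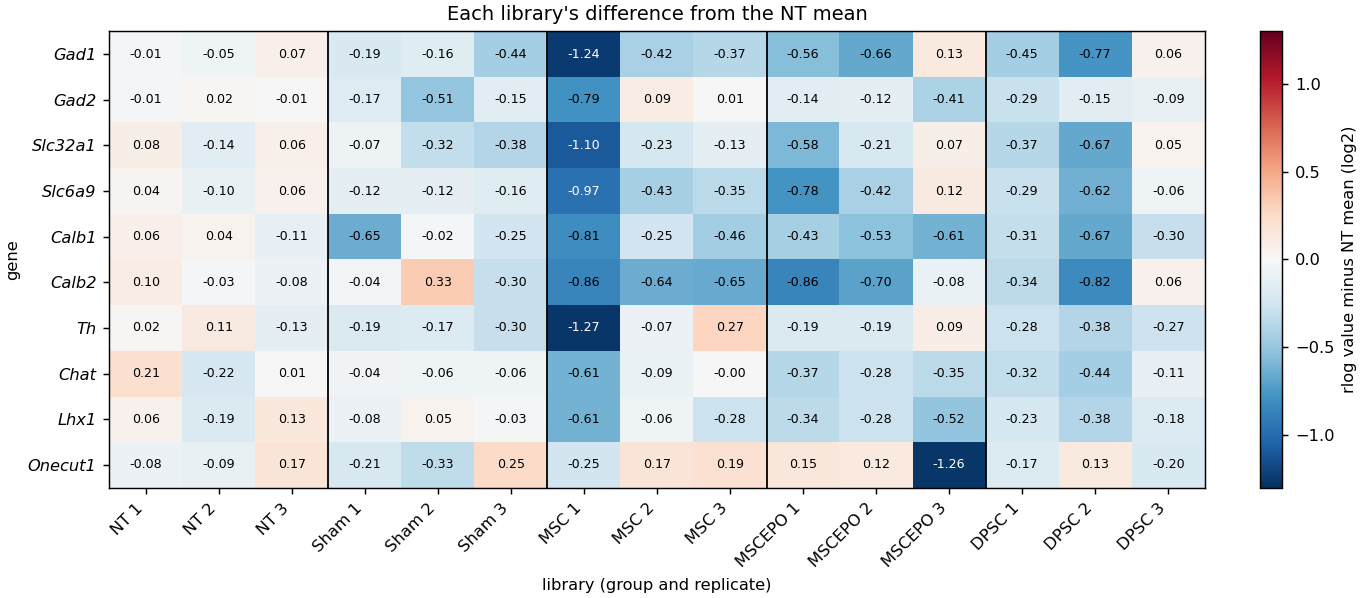
Difference of each library from the NT mean of the gene (rlog, log2 units), genes in rows and libraries in columns, blue for lower and red for higher. MSC replicate 1 is blue in all 10 rows, and the strongest single value of Onecut1 is -1.26 in MSCEPO replicate 3.

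The comparison of Sham with NT addressed the NaIO3 injury with the vehicle injection and without cells. The injury, the injection and any drugs given to Sham rats cannot be told apart in it. All 10 fitted differences were at or under 0, from -0.30 for Calb1 to -0.00 for Calb2, with a median of -0.18 against 0.00 over all tested genes, of which 48.8% were under 0. None was called, against 0.888% of all tested genes, and 0 genes had an unadjusted p under 0.05 in the lower direction, against 6.06%. For Gad1, Gad2, Slc6a9 and Th the 3 Sham libraries lay below the 3 NT libraries, 4 of 10 genes against 15.3% of all tested genes. The intervals of the 10 genes ran from -0.83 to 0.58 log2 units, so changes of that size were not resolved. Without NT replicate 1, 7 of the 10 differences were under 0, and under quantile normalization 9 were.

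MSC was compared with NT for the injured retina after cells. Gad1, Slc6a9, Calb1, Calb2 and Lhx1 were lower at an unadjusted p under 0.05, 5 of 10 genes against 12.9% of all tested genes. None of the 5 passed the adjusted threshold, which 17.4% of all tested genes passed, and Calb2 came closest. The median difference was -0.42, with 9 of 10 genes under 0 against 49.7% of all genes, and Gad1, Slc6a9, Calb1 and Calb2 had 3 libraries under the 3 of NT, 4 of 10 against 21.2%. Without MSC replicate 1 the median was -0.17, with 7 of 10 genes under 0, and the differences of Gad1, Slc6a9, Calb1 and Lhx1 became -0.40, -0.39, -0.35 and -0.17, the last from -0.32 with all libraries (adjusted p = 0.453 without it). Without MSCEPO replicate 3, which enters only the shared estimate of the spread, 4 genes passed: Gad1, Slc6a9, Calb1 and Calb2, with adjusted p of 0.0479, 0.0263, 0.0484 and 0.0210, when 26.3% of all tested genes did.

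MSCEPO differed from NT in the same direction. All 10 fitted differences were under 0, with a median of -0.35, against 50.5% of all tested genes. Calb1, Calb2 and Lhx1 were lower at an unadjusted p under 0.05, 3 of 10 genes against 13.4%, and 0 passed after adjustment, against 11.6% of all tested genes. Gad2, Calb1, Calb2, Chat and Lhx1 had 3 libraries under all NT libraries, 5 of 10 against 15%. Without MSCEPO replicate 3, Slc6a9 (-0.60, adjusted p = 0.0463) and Calb2 (-0.78, adjusted p = 0.0307) passed, when 19.4% of all tested genes did. Without MSC replicate 1, Calb1 (adjusted p = 0.0377) and Lhx1 (adjusted p = 0.0438) passed, when 15.6% did.

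In DPSC retinas all 10 differences from NT were likewise under 0, with a median of -0.32, against 49.4% of all tested genes. Calb1 was lower at an unadjusted p under 0.05, 1 of 10 genes against 7.9% of all, and 0 passed after adjustment, against 2.85%. For Gad2, Calb1 and Th the libraries did not overlap, 3 of 10 against 15.7%. Without DPSC replicate 2 the median was -0.19. The 4 comparisons with NT share the NT libraries.

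**Figure D3:**
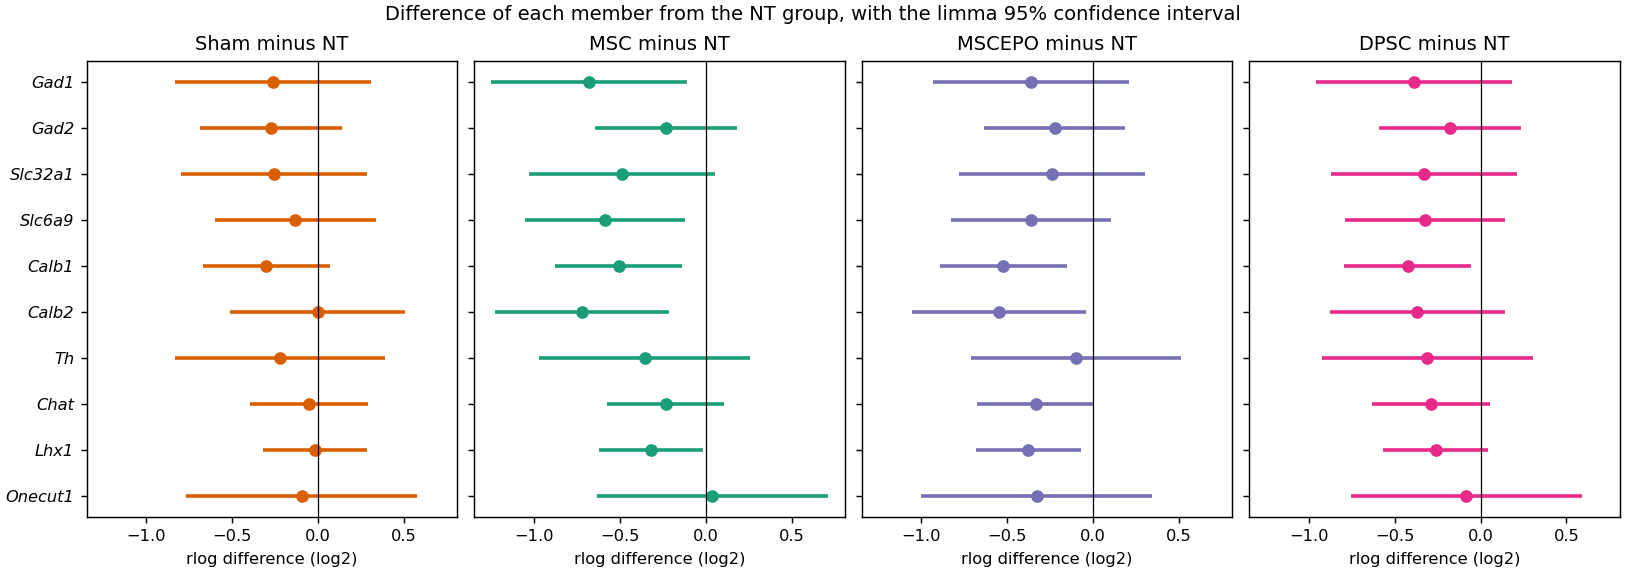
Difference of each group mean from the NT mean (rlog, log2 units) for the 10 genes, with the limma 95% confidence interval and a line at 0. Most points lie left of 0, and the intervals that leave 0 out are those of 5 genes in MSC, 3 in MSCEPO and 1 in DPSC, none of which passed after adjustment.

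Against Sham the question was whether cell-treated retinas differed from injured retinas given vehicle. None of the 10 genes was called in MSC, MSCEPO or DPSC, where 0%, 0.0259% and 0.0195% of all tested genes were. Calb2 was lower at an unadjusted p under 0.05 in MSC (1 of 10 genes against 3.82% of all). In MSCEPO Calb2 and Lhx1 were (2 of 10 against 5.12%), Calb2 by -0.55 (-1.05 to -0.04, adjusted p = 0.579). No gene was in DPSC, against 1.39% of all tested genes. Libraries lay apart for Slc6a9 and Calb2 in MSC (2 of 10 genes against 11.3%), for Chat and Lhx1 in MSCEPO (2 of 10 against 6.81%) and for Chat and Lhx1 in DPSC (2 of 10 against 5.07%), each time with the cell group lower. The medians were -0.21, -0.22 and -0.12, and each moved with single libraries. That of MSC was -0.02 without MSC replicate 1, with 5 of 10 genes under 0, -0.34 without MSC replicate 2 and -0.36 without MSC replicate 3. That of MSCEPO was -0.14 without MSCEPO replicate 1 and -0.15 without Sham replicate 2, and that of DPSC -0.05 without DPSC replicate 2 and -0.27 without DPSC replicate 3. Intervals reached from -1.23 to 0.81 over these 30 differences.

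The groups that received cells were not resolved from each other. MSC with MSCEPO, MSC with DPSC and MSCEPO with DPSC gave 0 called genes of 10, against 0%, 0% and 0% of all tested genes. At an unadjusted p under 0.05 there were 0 of 10 in each, against 3.79%, 7.02% and 2.48% of all tested genes in either direction. The 10 differences between MSC and MSCEPO ran from -0.32 to 0.37, and their intervals from -0.88 to 1.04.

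Across the 15 libraries the levels of Gad1, Slc32a1 and Slc6a9, whose promoters are printed above, varied together. Pearson's r was 0.93 for Gad1 and Slc6a9, 0.92 for Gad1 and Slc32a1 and 0.90 for Slc32a1 and Slc6a9. Calb2 correlated with Slc6a9 at 0.87, and Chat with Lhx1 at 0.86. Without MSC replicate 1 and MSCEPO replicate 3 the first 3 values were 0.87, 0.83 and 0.82 over 13 libraries, where Calb2 with Slc6a9 (0.89) and with Gad1 (0.85) stood as high. Gad1 and Gad2, the 2 routes to GABA, had an r of 0.44 over 15 libraries and 0.13 over 13. Onecut1 ran opposite to Calb2, at -0.40 over 15 libraries and -0.73 over 13, and with Gad2, at 0.53 and 0.57. The libraries share groups and composition, so these values describe the set and carry no test.

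The genes whose pattern was most like that of each member, by Pearson's r over the 15 libraries, were Prmt8 (0.97) and Inpp5e (0.96) for Gad1, Peg3 (0.93) and Arhgap20 (0.90) for Gad2, and Syt13 (0.97) and Slc45a1 (0.96) for Slc32a1. Flcn and Slc45a1 (both 0.97) were nearest to Slc6a9, so Slc45a1 stood next to both. For Calb1 they were Myom2 (0.94) and Fbxo33 (0.88), and for Calb2 Gabarapl1 (0.97) and Alg2 (0.96). Rusc2 (0.91) and Mpp2 (0.89) were nearest to Chat, and Map3k13 and Usp54 (both 0.91) to Lhx1. Epm2a and Trim33 (both 0.98) followed Onecut1, also at 0.96 and 0.96 without MSC replicate 1 and MSCEPO replicate 3. Gdf11 (0.89) and Nap1l3 (0.88) followed Th, with values of 0.66 and 0.46 without those libraries. Without them Peg3 and Arhgap20 were at 0.83 and 0.74 with Gad2. Rusc2 and Mpp2 were then at 0.86 and 0.82 with Chat, and Map3k13 and Usp54 at 0.84 and 0.83 with Lhx1.

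Other genes of the same cells and synapses were taken from lists. Each count of genes that passed against NT is to be read against the share of all tested genes that did, which was 0.888% in Sham, 17.4% in MSC, 11.6% in MSCEPO and 2.85% in DPSC. Of 28 other amacrine cell genes, 0 passed in Sham or DPSC, 3 in MSC and 2 in MSCEPO, counts not above those shares in MSC or MSCEPO. Gjd2, a connexin of the gap junctions of AII amacrine cells, fell in MSC (-0.46, adjusted p = 0.0406) and MSCEPO (-0.51, adjusted p = 0.0345). Crh, a neuropeptide, fell in MSC (-0.56, adjusted p = 0.0244). Megf10, an adhesion receptor for the spacing of starburst and horizontal cells that is also expressed by glia, rose in MSC (1.17, adjusted p = 0.00422) and MSCEPO (1.04, adjusted p = 0.00955). Without MSC replicate 1 the MSC calls of Gjd2 (adjusted p = 0.148) and Crh (adjusted p = 0.0874) were lost, and that of Megf10 was kept (adjusted p = 0.00705). The MSCEPO call of Gjd2 was lost under median centring (adjusted p = 0.0557) and quantile normalization (adjusted p = 0.0690). The list's median difference from NT was between -0.08 and -0.02 in the 4 groups, and none of 4 other horizontal cell genes passed. In MSC their differences were -0.06 for Gja10, a horizontal cell connexin, 0.00 for the transcription factor gene Sall3 and -0.09 for Prox1, also a transcription factor.

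On the receiving side, 3 of 22 genes of GABA transport, breakdown and reception passed in MSC and 3 in MSCEPO, all lower, and 0 in Sham or DPSC, near the 17.4% and 11.6% of all tested genes in the first pair. Gabrr2 and Gabrr1 encode rho subunits of the GABA receptor, which bipolar cells carry on their terminals. Gabrr2 fell by 0.81 in MSC (adjusted p = 0.00999) and by 0.67 in MSCEPO (adjusted p = 0.0315), and Gabrr1 by 0.52 (adjusted p = 0.0200) and 0.49 (adjusted p = 0.0362). Gabra4 fell in MSC (-0.85, adjusted p = 0.0190) and Gabra3 in MSCEPO (-0.50, adjusted p = 0.0436). Without MSC replicate 1, Gabrr1 (adjusted p = 0.0593) and Gabra4 (adjusted p = 0.0725) were lost in MSC, and without MSCEPO replicate 3 Gabra3 was lost in MSCEPO (adjusted p = 0.0727). The MSCEPO calls of Gabrr1 and Gabrr2 were lost under quantile normalization (adjusted p = 0.113 and 0.0633), and that of Gabrr1 under median centring (adjusted p = 0.0615). None of 6 genes of glycine receptors and their anchoring passed, with Glrb, the beta subunit, at -0.44 in MSC (adjusted p = 0.0695), the scaffold gene Gphn at -0.24 (adjusted p = 0.0604) and Glra3, an alpha subunit, at -0.29 (adjusted p = 0.533).

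For dopamine, 2 of 9 genes passed, both in MSC, where 17.4% of all tested genes did. The receptor Drd4, which photoreceptors express, fell by 1.44 (adjusted p = 0.0312), and Drd1 by 0.51 (adjusted p = 0.0460), the latter lost without MSC replicate 1 (adjusted p = 0.168) and under quantile normalization (adjusted p = 0.0522). Falls of such size were not confined to MSC. The lowest difference from NT in the list was -1.15 in Sham, -1.33 in MSCEPO and -0.91 in DPSC, where none passed. Gch1 and Pts, which make the cofactor of tyrosine hydroxylase, stood at -0.72 (adjusted p = 0.0738) and 0.18 (adjusted p = 0.251) in MSC. For acetylcholine, Chrnb4, a nicotinic receptor subunit, rose in all 4 groups: by 1.08 in Sham (adjusted p = 0.0457), 1.40 in MSC (adjusted p = 0.00213), 1.19 in MSCEPO (adjusted p = 0.00531) and 1.07 in DPSC (adjusted p = 0.0256). The Sham call was lost under quantile normalization (adjusted p = 0.0653). Ache, the enzyme that breaks acetylcholine down, rose in MSC (0.47, adjusted p = 0.0291) and MSCEPO (0.51, adjusted p = 0.0272), and was lost in MSC under median centring (adjusted p = 0.0835) and in MSCEPO without MSCEPO replicate 3 (adjusted p = 0.0517). The other 12 of 14 genes of this list did not pass, the muscarinic receptor gene Chrm1 among them at -0.02 in MSC. Of all 14 genes 5 lay under NT in Sham, 11 in MSC, 8 in MSCEPO and 8 in DPSC. The list's medians were 0.05, -0.09, -0.05 and -0.05 in that order.

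The other retinal cells set the background of composition. Of 14 rod genes 2 fell in Sham, 13 in MSC, 13 in MSCEPO and 11 in DPSC against NT, with medians of -0.79, -1.26, -1.39 and -0.98, in each group further from 0 than the median of the 10 interneuron genes. Of the 2 rod calls in Sham 1 was kept under median centring and 0 under quantile normalization, of the 11 in DPSC 10 and 9, and of the 13 in MSC 12 under quantile normalization. Of 11 ganglion cell genes Slc17a6 and Pou4f2 fell in MSC (-0.80 and -0.68), and of 12 ON bipolar cell genes Lrit3 fell in MSCEPO (-1.24), against 17.4% and 11.6% of all tested genes that passed. Lrit3 was not typical of its list, of which 4 of 12 genes lay under NT in MSCEPO (median 0.14) and 9 in MSC (median -0.16). Nefl, a neurofilament gene of ganglion cells, was at -0.49 in MSC (adjusted p = 0.152), and Prkca and Nyx of ON bipolar cells were at -0.58 and 0.59 (adjusted p = 0.259 and 0.0649). Both ganglion cell calls were lost without MSC replicate 1 (adjusted p = 0.0855 and 0.143). The rod genes with the smallest F test p were Pde6b, Cnga1 and Nrl, at -1.49, -1.14 and -1.44 in MSC. Reactive gliosis genes rose, with 5 of 10 passing in Sham, 10 in MSC, 10 in MSCEPO and 7 in DPSC, led by Gfap, Bcl3 and Lcn2 at 4.04, 2.24 and 2.43 in MSC. Macrophage and microglia genes passed as higher in 0, 14, 11 and 2 of 16, with C1qb, C1qa and C1qc at 3.10, 2.97 and 3.01 in MSC. In each of the 4 groups 0 of the 16 lay under NT, and the medians were 1.15, 2.49, 1.93 and 1.39. T and NK cell genes passed as higher in 10 of 12 in MSC and 0 in the other 3 groups. Among the 10 were Zap70, Lck and Cd8a at 1.28, 2.37 and 1.39, and 9 of the 10 passed without MSC replicate 1. Under NT lay 5 of the 12 in Sham, 1 in MSCEPO and 1 in DPSC, with medians of 0.05, 0.54 and 0.32. Between MSC and MSCEPO 0 of the 12 were called. Of 10 Müller glia genes 4 rose and 1 fell in MSC and 3 rose in MSCEPO, with Apoe, Slc1a3 and Sox9 at 1.13, 0.78 and 0.62 in MSCEPO. Of 11 pigment epithelium genes 4 fell in MSC, among them Slc6a20, Rrh and Rgr at -1.54, -0.80 and -2.74, and in MSCEPO 2 fell and 1 rose, of which 1 was kept under quantile normalization and 2 without MSCEPO replicate 3. Of 14 lens, cornea and ciliary body genes 1 fell in MSCEPO, Krt12 at -1.96, while Krt5 and Aqp5 did not pass in any group. Against Sham, 0 genes of any of these lists passed, where 0%, 0.0259% and 0.0195% of all tested genes did in MSC, MSCEPO and DPSC. So few calls cannot show that the lists were alike. All 14 rod genes lay under Sham in each of these groups, with medians of -0.54, -0.66 and -0.26. All 11 ganglion cell genes did as well, with medians of -0.45, -0.21 and -0.16. Of 16 macrophage and microglia genes 0, 0 and 4 lay under Sham, with medians of 1.31, 0.76 and 0.25. The share of the difference in the 10 genes that goes with this shift in composition was not tested.

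**Figure D4:**
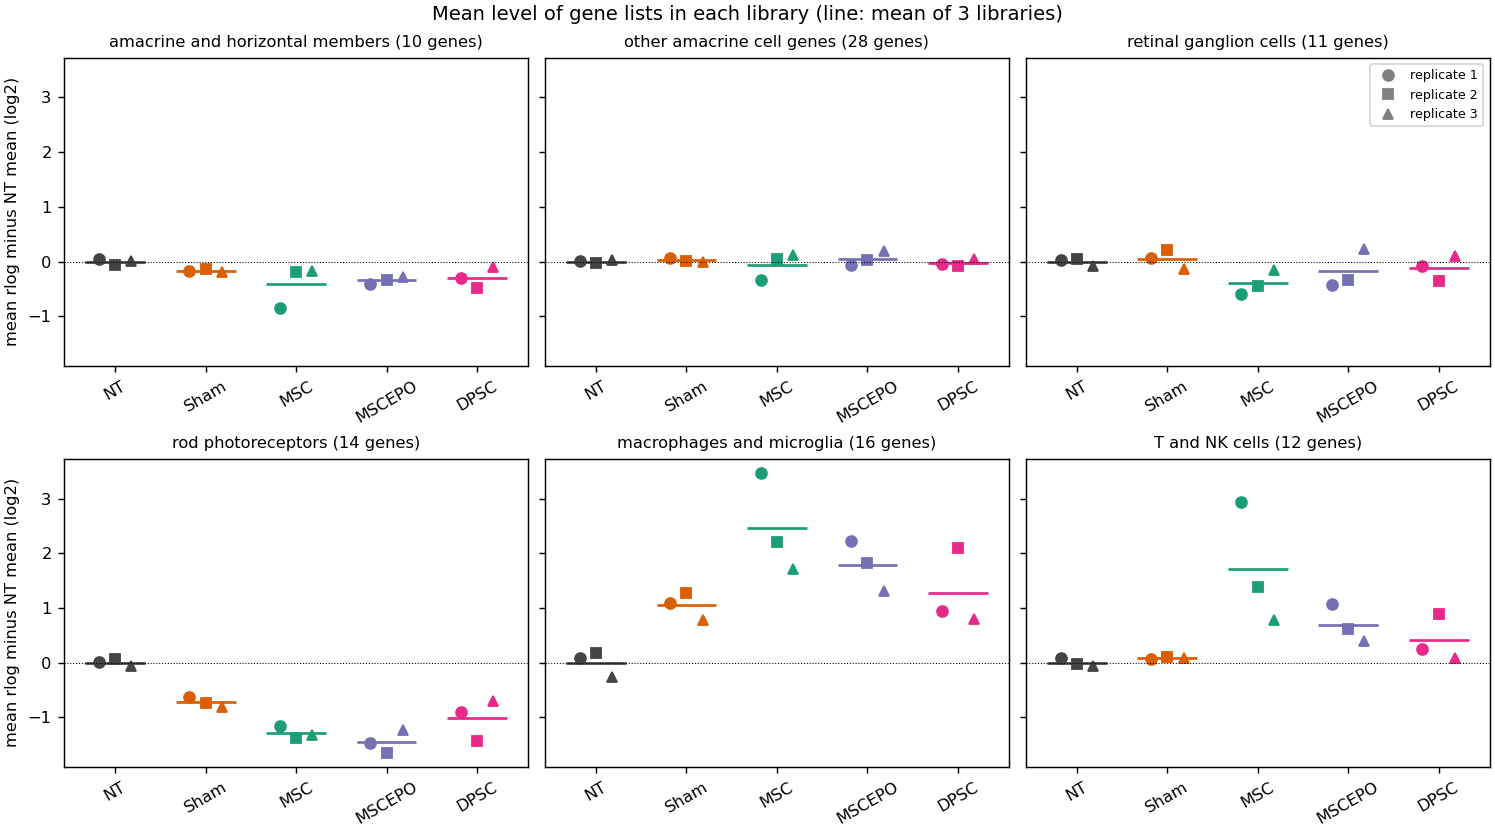
Mean rlog level of 6 gene lists in each library relative to the NT mean (log2 units), with points for libraries by replicate number and a line for the group mean. The interneuron genes stay within 0.85 of NT in every library, the 28 other amacrine cell genes between -0.34 and 0.19, while rod genes lie under NT in all 12 NaIO3 libraries and macrophage genes above it.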

How the data were processed

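Whole retina messenger RNA was sequenced in 15 libraries, 3 in each of 5 groups named in the labels. Reads were quantified by the authors with Salmon 1.1.0 on the Rnor_6.0 transcriptome, summed to genes with tximport and transformed with the rlog function of DESeq2. The deposited log2 values thus allow for library size. Counts were not used here, and rlog values do not show how deeply each library was read, so no counting interval is given. A table with a further 15 columns, not used, repeats the values (0 differ).

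Of 20375 genes, 2591 without a symbol, 15424 had a mean rlog of 3.32 (the log2 of 10) or more and entered the tests. limma 3.58.1 in R 4.3.3 fitted group means in one fit of 15 libraries with a variance trend. An F test and 10 comparisons were adjusted by the Benjamini-Hochberg method over all tested genes, and a call is an adjusted p under 0.05. Limma's 95% confidence intervals are given. The script was tested on simulated data. No label says that replicate numbers pair libraries across groups. Deviations from the group means of same-numbered MSC and MSCEPO libraries correlated at 0.26, 0.16 and 0.28. In no other of the 10 pairs of groups were all 3 over 0.1, though single same-numbered libraries reached 0.65 (MSCEPO and DPSC replicate 3). These values do not establish a pairing.

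The 10 genes and the 15 other lists were chosen with earlier results of these data known. Named beside the members are the 3 genes of each other list with the smallest F test p, genes that passed in a comparison, and the 2 genes with the highest Pearson's r to each member. Levels of a list are the mean rlog over its tested genes minus the NT mean. Promoters come from RefSeq (GRCr8), with none matched for Calb1, Calb2 and Onecut1. Alternatives were no filter, a filter in every library, 12 libraries without DPSC, the 2 groups alone, a replicate block, median centring, quantile normalization, array weights, no variance trend, a 2-fold change and each library left out. Leaving out 2 libraries together, and MSC and MSCEPO alone with the block, were added after the data were seen.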

Additional observations from a re-analysis of the deposited data

How the results depend on the processing

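None of the 10 genes passed in any comparison under no filter, a filter in every library, no variance trend or a further 2-fold change. Against NT, MSC gave 1 called gene over 12 libraries without DPSC (Calb2), 1 in a fit of the 2 groups alone (Calb2), 2 under median centring (Calb1, Calb2), 1 under quantile normalization (Lhx1) and 3 with array weights. MSCEPO gave 1 (Calb1), 1 (Lhx1) and 7 with the 2 groups alone, quantile normalization and array weights, and 3 (Gad1, Slc6a9, Calb2) without both MSC replicate 1 and MSCEPO replicate 3, chosen after seeing the data, when 27.5% of all tested genes passed. Array weights gave 6 for the F test, 1 for Sham and 9 for DPSC against NT, 4 for MSCEPO against Sham and 1 for MSCEPO against DPSC. There 60.8% of all tested genes passed the F test, and the estimate of the weights stopped before it converged. With each library left out, counts ran from 0 to 1 for the F test (Calb2, without MSCEPO replicate 3), 0 to 4 for MSC and 0 to 2 for MSCEPO against NT, and 0 to 0 elsewhere. MSC against NT gave 1 without Sham replicate 1, Sham replicate 2, MSC replicate 2, MSCEPO replicate 1, DPSC replicate 2 or DPSC replicate 3, and MSCEPO gave 1 without Sham replicate 1. Calb2 in MSC against NT had an adjusted p of 0.00579 to 0.150 over 25 alternatives and passed in 8. No gene was called in the main fit, so a call could be reversed only where an alternative called a gene with the other sign. Of 2470 alternative values of single genes 0 did so and 29 moved by more than the spread and changed sign. A further 50 passed that had not, those with the array weights that did not converge included.

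Whether replicate numbers pair the libraries of any 2 groups was not established. Of 30 pairs with the same number in different groups 12 had a correlation of deviations over 0.1 (range -0.44 to 0.65). Only between MSC and MSCEPO were all 3 over 0.1, and 6 of 15 libraries were nearest to their own number. With the replicate number as a block, 0 of the 10 genes were called in every comparison and in the F test. In MSC and MSCEPO alone with a replicate block, added after seeing the data, 0 were called as well, and the block changed no call. Library depths cannot be read from rlog values, and the 3 libraries a group limit the precision.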

Other observations

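The difference between Gad1 and Gad2 within a library, both read from the same RNA, was 1.31, 1.24 and 1.38 rlog units in NT and 1.28, 1.66 and 1.01 in Sham. It was 0.86, 0.80 and 0.93 in MSC, 0.89, 0.77 and 1.85 in MSCEPO and 1.15, 0.69 and 1.46 in DPSC. The 3 MSC libraries, replicate 1 included, lay under all 6 libraries of NT and Sham, although MSC replicate 1 was the lowest library for each of the 2 genes. MSCEPO and DPSC each spread over a wider range than NT. The comparison was chosen after the values were seen and was not tested.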
